A study of Saccharomyces cerevisiae with 36 samples.

Results

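The ATG genes encode the core and selective machinery of autophagy in budding yeast. They were taken as the features whose standard gene name is ATG followed by a number. There were 37 of them among the 7127 features counted, and 36 passed the low-count filter in both assays. The exception, ATG16, encodes the partner of the Atg12-Atg5 conjugate, and its counts were 0 to 6 per library in RNA and 0 to 5 in footprints. RNA-seq and Ribo-seq libraries came from 2 strains of Saccharomyces cerevisiae, the wild type W303a and a cth1Δcth2Δ double deletion mutant (the mutant below). CTH1 and CTH2 (listed as TIS11) encode RNA-binding proteins that promote the decay of mRNAs with AU-rich elements when iron is scarce. Cultures in synthetic complete medium at 30 °C received bathophenanthroline disulfonate (BPS) at 100 µM, which binds ferrous iron and keeps it from the cells, and were collected at 0 h (before the chelator), 3 h and 6 h. That gave 3 libraries, labelled as biological replicates, in each of 12 groups, set by assay, strain and hours. The deletion was present at 0 h and throughout. Every culture shared the W303a background, and the sources used here do not name a second clone of the mutant.

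Autophagy wraps cytoplasm in a double membrane, the autophagosome, and delivers it to the vacuole for breakdown. In yeast it is held low in growing cells by the kinase complex TORC1 and is induced by starvation. A constitutive branch, the cytoplasm-to-vacuole targeting (Cvt) pathway, brings a few hydrolases to the vacuole, and receptor proteins give selectivity for mitochondria, peroxisomes, endoplasmic reticulum and nucleus. Ribo-seq counts mRNA fragments protected by ribosomes (footprints), so it reads how much of a message was being translated, and RNA-seq reads how much of it was present.

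Library totals were 113262 to 6571727 counts in RNA and 607936 to 28491058 in footprints. ATG genes took 0.0617 to 0.349% of RNA counts and 0.0425 to 0.453% of footprint counts. Levels are given as CPM, the count of a gene scaled to a common library size, with TMM factors, which centre the bulk of genes. A value of 3 counts stood for 0.463 to 22.2 CPM in RNA and 0.111 to 4.31 CPM in footprints, counting error only. The deleted genes matched the labels: TIS11 RNA at 6 h was 329 ± 70.8 CPM (SD, n = 3) in the wild type and 6.97 ± 3.91 CPM in the mutant. The a-specific MFA1 was at 144 ± 38.4 CPM in wild-type RNA at 0 h, and the alpha-specific STE3 at 1.02 ± 1.49 CPM. STE3 RNA stood at 21.6 ± 9.58 CPM in the wild type at 6 h. In wild type at 3 h, replicate 2 held the highest value of the 3 libraries for 29 of 37 ATG genes in RNA and for 31 of 37 in footprints. These are bulk cultures, so more RNA per cell and more cells carrying it cannot be told apart.

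ATG genes rose in both strains, with few passing the test given below by 3 h and most by 6 h. Their summed level in wild-type footprints was 475.9 ± 58.4 CPM (SD, n = 3) before BPS, 868.2 ± 402 CPM after 3 h and 3363 ± 978 CPM after 6 h. In the mutant the sums were 539.4 ± 50.6, 1019 ± 125 and 2509 ± 461 CPM. RNA sums were 871.5 ± 93.4, 1291 ± 458 and 2495 ± 219 CPM in the wild type and 865.9 ± 173, 1327 ± 196 and 2203 ± 209 CPM in the mutant. The 0 h and 6 h libraries did not overlap in any of these sums.

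By edgeR's quasi-likelihood test, at an adjusted p under 0.05, 31 of the 36 ATG genes tested rose in wild-type footprints at 6 h and none fell. Over all 5315 features tested, 28.5% rose and 24.3% fell in that comparison. In mutant footprints 27 of 36 rose and none fell, where 26.2% of all features rose and 24.5% fell. Those 27 genes were all among the 31, that is 100% of the mutant list and 87.1% of the wild-type list. In RNA, 26 of 36 rose and 1 fell in the wild type, where 19.2% of 6006 features rose and 16.7% fell. In mutant RNA 19 of 36 rose and 1 fell, where 17.8% of features rose and 20.9% fell. The strains shared 18 of these rises in RNA, 69.2% of the wild-type list and 94.7% of the mutant list. The median log2 fold change of the ATG genes in footprints was 2.22 in the wild type and 1.79 in the mutant, beside 0.09 and 0.07 over all features. In RNA it was 1.69 and 1.33, beside 0.03 and 0.01. Wild-type RNA replicates 1 and 2 at 6 h held 113262 and 215168 counts in all, with 24 and 10 ATG genes under 10 counts. RNA replicate 2 at 0 h held 245994 counts in the wild type and 186283 in the mutant, with 30 and 35 ATG genes under 10 counts. In footprints at 0 h, 21 and 19 were under 10 counts in wild-type replicates 1 and 2. Mutant replicates 1 and 2 had 10 and 18 such genes there. Replicate 3, the deepest, had 1 in the wild type and 3 in the mutant. Without wild-type replicate 3 at 6 h, the deepest RNA library of its group, 17 ATG genes in place of 27 passed in wild-type RNA.

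At 3 h the set that passed was small. In wild-type footprints it held ATG19, ATG32 and ATG34, where 3.67% of all features rose, and with the replicate number as a block, which the data pair here, ATG22 and ATG42 passed as well, 5 in all. In mutant footprints ATG4, ATG19, ATG23, ATG32 and ATG34 passed, where 2.86% rose. In RNA, ATG8, ATG19, ATG20 and ATG34 rose in the wild type, where 2.66% of features rose, and ATG19 and ATG34 in the mutant, where 2.13% rose. The medians of the 36 genes at 3 h were 0.57 and 0.55 on the log2 scale in wild-type and mutant RNA and 0.70 and 0.58 in footprints. Over all features the medians were 0.03, -0.03, 0.02 and 0, in that order. The fitted change was positive for 30, 26, 31 and 28 of the 36 genes. Over all features it was positive for 52.6, 47.8, 52 and 50.3%. Calls at 3 h depended on single libraries. In wild-type RNA, 2 genes passed without replicate 1 or replicate 2 at 0 h, and 1 without replicate 3 at 0 h or replicate 2 at 3 h. In mutant RNA, 1 passed without replicate 1 or replicate 2 at 3 h. In mutant footprints, 2 passed without any one replicate at 0 h, or without replicate 1 or replicate 2 at 3 h.

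Between 3 h and 6 h, 24 of 36 rose in wild-type footprints, where 21.7% of features rose, and 14 in the mutant, where 17.3% did, a count that was 21 with the replicate block, which the data pair here. In RNA 11 rose in the wild type, where 11.5% of features rose, and 10 in the mutant, where 7.48% did. By edgeR no ATG gene fell over that interval, in which 18.6% and 17.7% of features fell in wild-type and mutant footprints and 11.2% and 10.3% in RNA. Wild-type RNA gave 20 without replicate 2 at 3 h, and wild-type footprints gave 14 without replicate 1 and 15 without replicate 3 at 3 h. Mutant RNA gave 3 without replicate 1 or replicate 3 at 3 h, 4 without replicate 1 at 6 h and 5 without replicate 3 at 6 h.

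**Figure D1:**
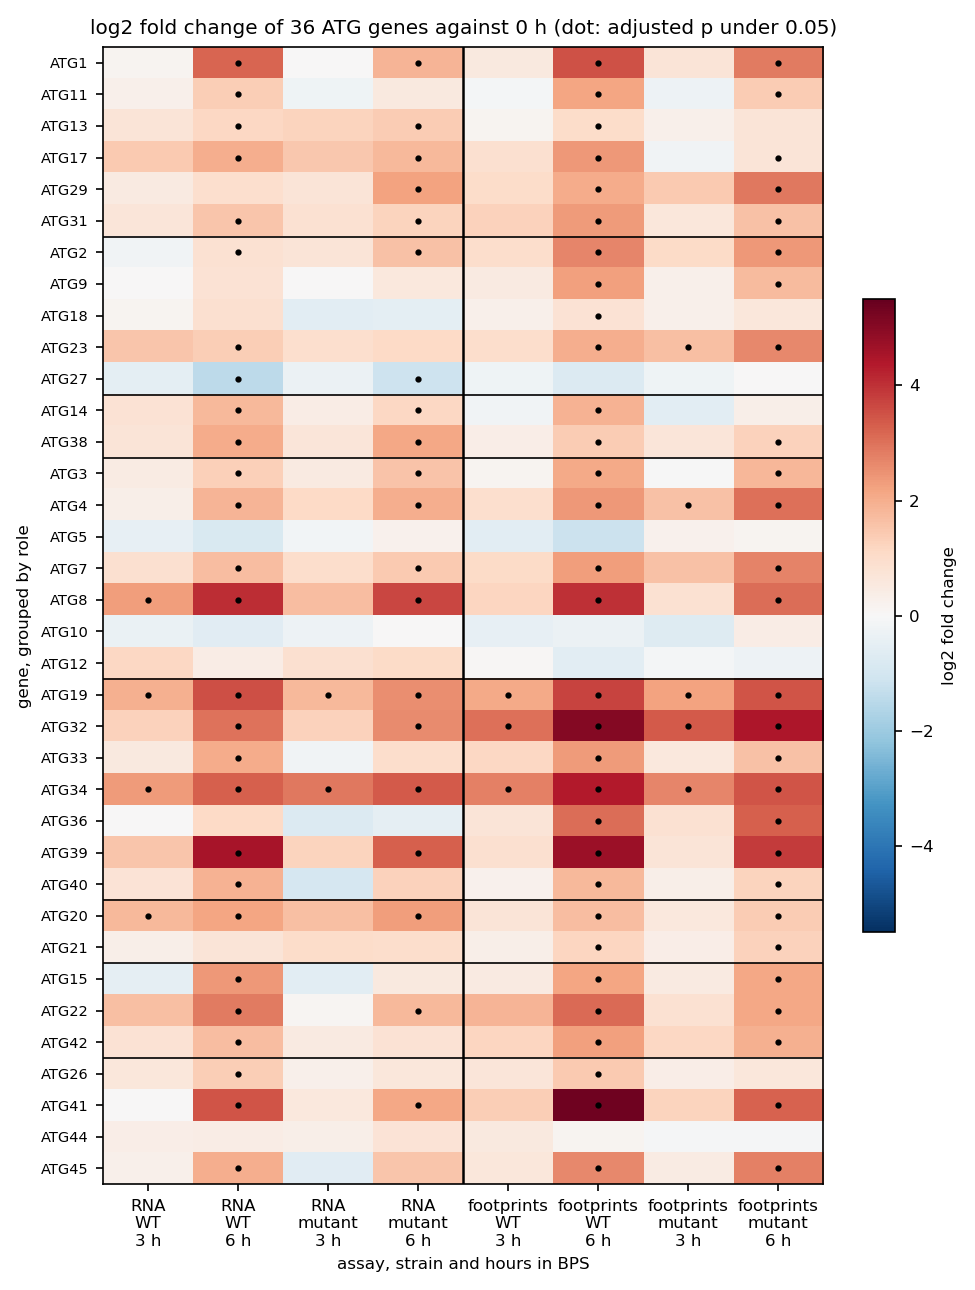
Log2 fold change against 0 h for the 36 tested ATG genes (rows, grouped by role from initiation at the top to the remaining genes at the bottom) in RNA and footprints of both strains at 3 h and 6 h (columns). Red is higher and blue lower than at 0 h, and a dot marks an adjusted p under 0.05. The 6 h columns hold 26 rises and 1 fall in wild-type RNA, 19 and 1 in mutant RNA, and 31 and 27 rises in wild-type and mutant footprints.

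Scaling by total counts alone shifted the whole distribution in RNA, since its median over all features at 6 h was 0.62 in the wild type and 0.71 in the mutant. With that scaling 2088 features rose and 484 fell in wild-type RNA at 6 h, in place of 1152 and 1003, and 2422 rose and 542 fell in the mutant, in place of 1069 and 1254. The split moved likewise in the remaining RNA contrasts over time. It was 239 and 58 in place of 160 and 89 for the wild type at 3 h, 284 and 20 in place of 128 and 61 for the mutant at 3 h, 1303 and 354 in place of 690 and 671 for the wild type between 3 h and 6 h, and 1086 and 309 in place of 449 and 619 for the mutant between them. In mutant footprints it was 1683 and 1053 at 6 h in place of 1394 and 1304, and 1318 and 627 between 3 h and 6 h in place of 918 and 943. Under it 31 ATG genes rose in RNA at 6 h in each strain and none fell. The changes below are on the TMM scale, relative to the bulk of genes. Several genes given by library below were chosen because their wild-type 6 h and 0 h libraries did not overlap. For them that separation restates the choice.

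The initiation complex is built around the kinase Atg1 and its regulatory subunit Atg13, a target of TORC1, with the scaffold Atg17-Atg29-Atg31 for starvation-induced autophagy and Atg11 for selective forms. All 6 of its genes rose in wild-type footprints at 6 h and 5 of 6 in the mutant, where ATG13 missed the threshold. In RNA 5 of 6 rose in each strain. The exceptions were ATG29 in the wild type, with a log2 fold change of 0.93 ± 0.69 (adjusted p = 0.306), and ATG11 in the mutant, with 0.55 ± 0.29 (adjusted p = 0.138). ATG29 overlaps SET6, so its counts may hold reads of that gene.

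ATG1 footprints in the wild type were 14, 6.98 and 10.2 CPM at 0 h, 9.38, 25.3 and 11.3 CPM at 3 h, and 101, 117 and 135 CPM at 6 h. In the mutant they were 12, 12.7 and 9.28 CPM at 0 h, 16.1, 19.7 and 18.9 CPM at 3 h, and 95.8, 47.7 and 97.7 CPM at 6 h. All 6 h libraries lay above all 0 h libraries, while 3 h and 0 h overlapped in the wild type. The log2 fold change of ATG1 at 6 h was 3.50 ± 0.39 (adjusted p = 5.81e-06) in wild-type footprints and 2.85 ± 0.38 (adjusted p = 2.89e-05) in the mutant. ATG1 RNA in the wild type stood at 11.3, 4.82 and 13.9 CPM at 0 h, 15.1, 15.5 and 9.37 CPM at 3 h, and 104, 130 and 97.4 CPM at 6 h. Its mutant values were 13.2, 18.5 and 19.4 CPM at 0 h, 14.7, 14.8 and 20.1 CPM at 3 h, and 78.1, 44.6 and 65.7 CPM at 6 h. The rise in RNA came between 3 h and 6 h in both strains, and at 6 h its log2 fold change was 3.21 ± 0.36 (adjusted p = 8.17e-07) in the wild type and 1.89 ± 0.35 (adjusted p = 0.00021) in the mutant. The lowest wild-type library at 6 h, 97.4 CPM, lay above the highest mutant one, 78.1 CPM, but the difference between strains at 6 h, -0.79 ± 0.31 (adjusted p = 0.387), did not pass.

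ATG13 footprints had a narrower range than those of ATG1. They were 28.7, 27 and 18.3 CPM at 0 h, 22.4, 34.3 and 23.7 CPM at 3 h, and 39.4, 42.8 and 64.4 CPM at 6 h in the wild type. Mutant ATG13 footprints were 27.1, 24.6 and 15.5 CPM at 0 h, 27.9, 30.4 and 22.2 CPM at 3 h, and 40.6, 29.6 and 38.8 CPM at 6 h. The 6 h values lay above those at 0 h without overlap in both strains, with log2 fold changes of 1.02 ± 0.29 (adjusted p = 0.00752) in the wild type and 0.72 ± 0.29 (adjusted p = 0.0508) in the mutant. ATG13 RNA in the wild type was 31.6, 48.2 and 14.5 CPM at 0 h, 37.8, 70.5 and 30.1 CPM at 3 h, and 44.5, 68.7 and 62.3 CPM at 6 h. Mutant ATG13 RNA was 26.5, 6.16 and 15.7 CPM at 0 h, 49.7, 51.8 and 32.5 CPM at 3 h, and 57.3, 35.5 and 52.2 CPM at 6 h. Its 0 h and 6 h values overlapped in wild-type RNA and not in the mutant, and the log2 fold changes at 6 h were 1.15 ± 0.44 (adjusted p = 0.0443) and 1.41 ± 0.44 (adjusted p = 0.0135). The call in wild-type RNA was lost without replicate 1 or 3 at 0 h or replicate 2 or 3 at 6 h, that in mutant RNA without replicate 3 at 0 h, and that in wild-type footprints without replicate 3 at 0 h.

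ATG17 was the initiation gene whose strains parted in footprints. Its wild-type values were 2.33, 4.36 and 4.78 CPM at 0 h, 6.65, 9.85 and 6.27 CPM at 3 h, and 22.3, 22.9 and 20 CPM at 6 h. Its mutant values were 8.14, 8.47 and 6.77 CPM at 0 h, 7.75, 6.66 and 5.66 CPM at 3 h, and 14.9, 10.8 and 11.5 CPM at 6 h. The wild type started below the mutant and ended above it, with no overlap at 0 h or at 6 h, but neither strain difference passed. Wild-type footprints at 0 h were 3, 5 and 89 counts, and mutant replicate 3 at 6 h held 8. ATG17 footprints rose by 2.40 ± 0.30 (adjusted p = 1.19e-05) on the log2 scale in the wild type and by 0.72 ± 0.28 (adjusted p = 0.0435) in the mutant, a call that 8 of 12 alternatives lost. ATG17 RNA was 7.66, 28.9 and 2.31 CPM at 0 h, 19.2, 33.4 and 11.3 CPM at 3 h, and 22.2, 36.2 and 28.1 CPM at 6 h in the wild type. In the mutant it was 4.41, 12.3 and 5.14 CPM at 0 h, 23.9, 3.7 and 15 CPM at 3 h, and 24.2, 18.2 and 15.4 CPM at 6 h. RNA values scattered more than footprints, with a wild-type 0 h library of 28.9 CPM from a library under 250000 counts, and the log2 fold changes at 6 h were 1.98 ± 0.66 (adjusted p = 0.0216) and 1.80 ± 0.66 (adjusted p = 0.0355). The wild-type call in RNA was lost without replicate 1 or 3 at 0 h or replicate 3 at 6 h, and the mutant call without replicate 1 or 3 at 0 h or replicate 1 at 6 h.

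Atg9 is the membrane protein of the vesicles that seed the autophagosome, Atg2 is a lipid transfer protein that works with the phosphoinositide-binding Atg18, and Atg23 and Atg27 serve the traffic of Atg9. In wild-type footprints ATG2, ATG9, ATG18 and ATG23 rose, with log2 fold changes of 2.7, 2.26, 0.80 and 2.01. In mutant footprints ATG2, ATG9 and ATG23 rose, by 2.40, 1.75 and 2.66. ATG9 did not pass in RNA in either strain, at 0.80 ± 0.37 (adjusted p = 0.0931) in the wild type and 0.56 ± 0.35 (adjusted p = 0.22) in the mutant. ATG27 went the other way in RNA. Its wild-type RNA was 78.1, 125 and 120 CPM at 0 h, 69.6, 54.9 and 90.6 CPM at 3 h, and 22.2, 32.6 and 46.9 CPM at 6 h. Its mutant RNA was 98.2, 73.9 and 135 CPM at 0 h, 79.2, 77.6 and 93.5 CPM at 3 h, and 58.2, 38.5 and 46.2 CPM at 6 h. All 6 h libraries lay below all 0 h libraries in both strains, with log2 fold changes of -1.46 ± 0.34 (adjusted p = 0.00211) and -1.15 ± 0.31 (adjusted p = 0.00581). Scaled by total counts alone these were -0.87 (adjusted p = 0.0514) and -0.43 (adjusted p = 0.275), so the fall is relative to the bulk of genes. Leaving out RNA libraries under 250000 counts kept replicate 3 alone in the wild type at 6 h, so that setting cannot test the fall of ATG27 there. Its footprints did not pass in either strain, at -0.74 and 0.00. At 0 h it was one of the most abundant members, with 132 CPM per kb of coding length in wild-type RNA.

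PI3-kinase complex I makes the lipid that marks the forming autophagosome, and Atg14 and Atg38 are its autophagy-specific subunits. Both rose in RNA of both strains at 6 h, ATG14 by 1.80 ± 0.45 and 1.16 ± 0.43 and ATG38 by 2.05 ± 0.56 and 2.14 ± 0.59 on the log2 scale, wild type first. Both rose in wild-type footprints, by 1.91 ± 0.64 and 1.40 ± 0.46. In the mutant ATG38 rose in footprints, by 1.28 ± 0.46, and ATG14 did not pass, at 0.34 ± 0.63 (adjusted p = 0.679). ATG20, a sorting nexin, and ATG21, a phosphoinositide-binding protein of the Cvt pathway, rose in footprints of both strains, ATG20 by 1.71 and 1.40 and ATG21 by 1.17 and 1.27. In RNA ATG20 rose in both strains, by 2.16 and 2.28, and ATG21 in neither, at 0.70 ± 0.39 (adjusted p = 0.163) and 0.95 ± 0.38 (adjusted p = 0.0508).

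The calls of the conjugation genes at 6 h divided by branch. Atg8 is the ubiquitin-like protein that coats the autophagosome: Atg4 processes it, Atg7 activates it and Atg3 transfers it to lipid. Atg12 is a second ubiquitin-like protein, activated by the same Atg7, transferred by Atg10 to Atg5 and joined by Atg16. ATG3, ATG4, ATG8 and the shared ATG7 rose in both assays and both strains at 6 h, 4 of the 7 conjugation genes tested. ATG5, ATG10 and ATG12 rose in none of the 4 comparisons. Their log2 fold changes at 6 h were -1.20 to -0.32 in wild-type footprints (adjusted p 0.0703 to 0.647), -0.27 to 0.41 in mutant footprints (0.568 to 0.807), -0.83 to 0.42 in wild-type RNA (0.0998 to 0.581) and 0 to 1.07 in mutant RNA (0.114 to 0.996). Scaled by total counts alone, ATG5 and ATG12 passed in mutant RNA, at 0.96 (adjusted p = 0.0313) and 1.79 (adjusted p = 0.00985), and none of the 3 passed in wild-type RNA or in footprints of either strain. Wild-type footprints at 6 h were 4, 16 and 7 counts for ATG10 and 11, 21 and 5 counts for ATG12. Mutant footprint replicate 3 at 6 h held 0, 2 and 3 counts of ATG5, ATG10 and ATG12. Counts this low limit what a missed threshold can show. The difference between the branches was not tested as such.

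ATG8 had one of the widest ranges. Its wild-type footprints were 11.6, 6.11 and 12.5 CPM at 0 h, 12.7, 49.2 and 11.8 CPM at 3 h, and 165, 116 and 233 CPM at 6 h. Its mutant footprints were 10.1, 9.31 and 18.9 CPM at 0 h, 26.4, 27.2 and 19.2 CPM at 3 h, and 134, 112 and 89 CPM at 6 h. All libraries at 6 h were at 89 CPM or more in both strains, and at 3 h wild-type replicate 2 stood apart from the others at 49.2 CPM. The log2 fold change at 6 h was 4.02 ± 0.53 (adjusted p = 2.03e-05) in wild-type footprints, a 16.2-fold rise, and 3.06 ± 0.50 (adjusted p = 0.000141) in the mutant. ATG8 RNA was 6.93, 4.82 and 6.28 CPM at 0 h, 13.6, 82.4 and 11.3 CPM at 3 h, and 133, 61.5 and 133 CPM at 6 h in the wild type. In the mutant it was 7.72, 0 and 10.3 CPM at 0 h, 35, 48.1 and 14.7 CPM at 3 h, and 157, 89.2 and 81.9 CPM at 6 h. RNA rose with footprints, by 4.07 ± 0.68 (adjusted p = 7.03e-05) in the wild type and 3.68 ± 0.67 (adjusted p = 0.000189) in the mutant, and the wild-type 3 h library of replicate 2, at 82.4 CPM, again stood apart. Without that library the 3 h call of ATG8 in wild-type RNA, 2.32 ± 0.66 (adjusted p = 0.0468), was lost, as it was without any one wild-type replicate at 0 h, with RLE factors, with the replicate block, with only the groups compared and without RNA libraries under 250000 counts. It was lost in 8 of 13 alternatives.

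ATG5, the acceptor of Atg12, is the gene of the other branch given by library, added after its values were seen. Its wild-type log2 fold changes at 6 h were the lowest of that branch, -1.20 in footprints and -0.83 in RNA. Its wild-type footprints were 6.2, 11.3 and 5.21 CPM at 0 h, 5.65, 3.46 and 4.7 CPM at 3 h, and 3.5, 2.83 and 3.05 CPM at 6 h. Its wild-type RNA was 65.1, 77.2 and 88.6 CPM at 0 h, 52.5, 47.8 and 68.7 CPM at 3 h, and 22.2, 36.2 and 54.3 CPM at 6 h. The 6 h libraries lay below the 0 h libraries without overlap in both assays, but neither difference passed by edgeR. DESeq2 passed it in footprints (adjusted p = 0.0369). In mutant footprints ATG5 was 4.27, 5.08 and 5.12 CPM at 0 h, 4.34, 5.2 and 7.18 CPM at 3 h, and 3.84, 9.78 and 0 CPM at 6 h. These values overlapped at all times. Mutant ATG5 RNA overlapped as well, at 60.7, 24.6 and 92.8 CPM at 0 h, 47.9, 74 and 61 CPM at 3 h, and 47.6, 92.2 and 94.3 CPM at 6 h.

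**Figure D2:**
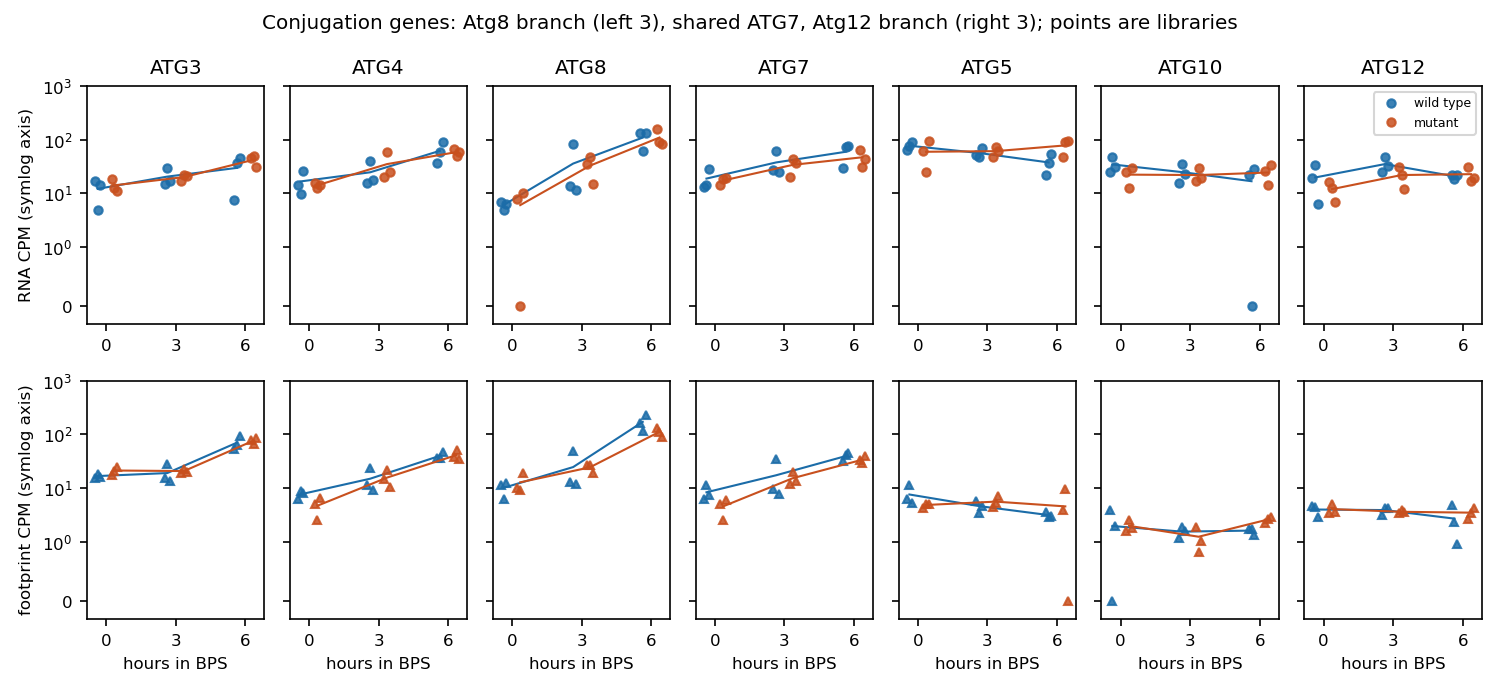
RNA (upper row, circles) and footprints (lower row, triangles) of 7 conjugation genes in CPM on an axis that is linear below 1 and logarithmic above, against hours in BPS. Each point is a library, lines join group means of 3 replicates, and wild type is blue and mutant orange. ATG3, ATG4, ATG8 and ATG7 climb by 6 h in both rows, and footprints of ATG5, ATG10 and ATG12 stay at or below 11.3 CPM.

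ATG8 is a textbook target of Ume6, a repressor that acts in growing cells and binds an upstream element, URS1. The core letters GGCGGC of that element were searched on both strands from 250 bases before to 50 after each annotated start codon, in the R64 reference of strain S288C. They were found for 3 of 37 ATG genes (8.11%) and for 308 of 5989 nuclear protein-coding genes (5.14%). The 3 genes were ATG8, ATG19 and ATG42, which codes for a vacuolar carboxypeptidase. Their sites are shown on the coding strand of the gene, 30 bases each with the core in capitals, because of the textbook tie of URS1 to ATG8. Matches to the other elements searched are given as counts only.
ATG8: ccggttattttcGGCGGCggcaaaaatatt
ATG19: cgaggtaattgcGGCGGCacttgcttcagt
ATG42: aaaaatggccgaGGCGGCgctagcattcta
The ATG8 site is at chrII:80847-80876, minus strand, its core starts 133 bases before the start codon, and a second, overlapping core starts 130 bases before it. The ATG19 site is at chrXV:168672-168701, plus strand, with the core 43 bases before the start codon. The ATG42 site is at chrII:515511-515540, plus strand, with the core 141 bases before the start codon. The Gcn4 letters TGACTC were found for 7 of 37 ATG genes (18.9%, beside 8.0% of all genes), the GATA letters GATAAG for 10 (27%, beside 14.7%) and the stress-element letters AGGGG for 8 (21.6%, beside 21.6%). A match describes letters in these windows, not a bound site.

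The selective receptors had the largest median change of the role groups at 6 h in both assays and both strains, a difference between groups that was not tested. Atg19 is the Cvt receptor that brings the hydrolases Ape1 and Ams1 to the autophagosome, Atg34 is its paralogue with a role for Ams1 in starvation, and Atg32 is the receptor for mitochondria. Atg33 is a mitochondrial outer membrane protein of mitophagy, Atg36 the receptor for peroxisomes, Atg39 that for the nuclear envelope and Atg40 one for the endoplasmic reticulum. All 7 genes rose in footprints of both strains at 6 h, with median log2 fold changes of 3.73 in the wild type and 3.45 in the mutant. In RNA 6 of 7 rose in the wild type and 4 of 7 in the mutant. ATG36 passed in RNA of neither strain, and ATG33 and ATG40 not in mutant RNA, at 0.96 ± 0.40 (adjusted p = 0.0603) and 1.25 ± 0.55 (adjusted p = 0.076).

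ATG32 footprints in the wild type were 6.2, 6.11 and 6.29 CPM at 0 h, 38.2, 84.6 and 31.4 CPM at 3 h, and 198, 235 and 180 CPM at 6 h. Mutant ATG32 footprints were 14.3, 12.7 and 5.64 CPM at 0 h, 82.5, 157 and 81.3 CPM at 3 h, and 232, 237 and 210 CPM at 6 h. The groups 0 h, 3 h and 6 h did not overlap in either strain. The log2 fold change was 3.03 ± 0.44 (adjusted p = 0.000565) at 3 h and 5.04 ± 0.46 (adjusted p = 2.91e-06) at 6 h in the wild type, and 3.38 ± 0.42 (adjusted p = 0.000585) and 4.46 ± 0.44 (adjusted p = 5.34e-06) in the mutant. ATG32 RNA was 13.9, 0 and 17.2 CPM at 0 h, 32.8, 38.2 and 29.7 CPM at 3 h, and 74.2, 127 and 118 CPM at 6 h in the wild type. In the mutant its RNA was 5.51, 18.5 and 32.7 CPM at 0 h, 35, 77.6 and 46.6 CPM at 3 h, and 101, 138 and 137 CPM at 6 h. RNA rose by 2.99 ± 0.48 (adjusted p = 4.63e-05) in the wild type and 2.58 ± 0.47 (adjusted p = 0.000177) in the mutant at 6 h, and did not pass at 3 h in either strain. These fitted changes at 6 h were smaller than those in footprints. The test of that difference between assays, given below, did not pass for ATG32 in either strain in the main fit. Its size also depends on the scaling.

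ATG19 footprints were 13.2, 23.5 and 14 CPM at 0 h, 34.5, 140 and 38.9 CPM at 3 h, and 290, 223 and 145 CPM at 6 h in the wild type. Mutant ATG19 footprints were 24.8, 25.4 and 10.7 CPM at 0 h, 103, 110 and 58.9 CPM at 3 h, and 279, 185 and 174 CPM at 6 h. Both 3 h groups lay above their 0 h groups without overlap, and wild-type replicate 2 at 3 h came close to the lowest library at 6 h. The log2 fold change at 6 h was 3.73 ± 0.55 (adjusted p = 5.4e-05) in the wild type and 3.45 ± 0.54 (adjusted p = 9.55e-05) in the mutant. ATG19 RNA was 20.4, 14.5 and 12.9 CPM at 0 h, 43.9, 123 and 34 CPM at 3 h, and 252, 170 and 172 CPM at 6 h in the wild type. Its mutant RNA was 25.4, 30.8 and 20.3 CPM at 0 h, 93.9, 81.3 and 73.1 CPM at 3 h, and 172, 135 and 112 CPM at 6 h. The 6 h and 0 h libraries did not overlap in RNA either, with log2 fold changes of 3.55 ± 0.44 (adjusted p = 2.19e-06) in the wild type and 2.56 ± 0.43 (adjusted p = 7.95e-05) in the mutant. At 3 h the footprint call, 2.10 ± 0.53 (adjusted p = 0.026) in the wild type, was lost without replicate 1 or 3 at 0 h or replicate 2 at 3 h, and the RNA call, 1.97 ± 0.42 (adjusted p = 0.00614), without replicate 3 at 0 h or replicate 2 at 3 h. The mutant 3 h calls were 2.21 ± 0.52 (adjusted p = 0.0255) in footprints, lost without any one replicate at 0 h or replicate 1 or 2 at 3 h, and 1.79 ± 0.43 (adjusted p = 0.0225) in RNA, lost without replicate 3 at 0 h or replicate 1 or 2 at 3 h.

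ATG34 lies next to ATG19 on chromosome XV, in the same direction. No pair of ATG coding spans shared an exact run of more than 17 bases, so reads of the paralogues differ in sequence. ATG34 footprints in the wild type were 1.55, 1.74 and 2.79 CPM at 0 h, 11.8, 26.6 and 11.8 CPM at 3 h, and 54.7, 48.1 and 44.4 CPM at 6 h. In the mutant ATG34 footprints were 13.6, 6.77 and 4.68 CPM at 0 h, 52.1, 60.4 and 41.8 CPM at 3 h, and 108, 88.3 and 66.1 CPM at 6 h. Mutant libraries exceeded wild-type libraries at every time without overlap, but the difference passed at 3 h alone. Wild-type ATG34 footprints at 0 h were 2, 2 and 52 counts. Within strains the log2 fold change at 6 h was 4.35 ± 0.46 (adjusted p = 4.4e-06) in the wild type and 3.45 ± 0.41 (adjusted p = 1.39e-05) in the mutant. ATG34 RNA was 4.56, 0 and 6.94 CPM at 0 h, 26.2, 41.8 and 16.4 CPM at 3 h, and 44.5, 28.9 and 68 CPM at 6 h in the wild type. In the mutant ATG34 RNA was 7.72, 6.16 and 10.6 CPM at 0 h, 60.8, 96.1 and 57.5 CPM at 3 h, and 117, 94.2 and 81.1 CPM at 6 h. At 3 h it had already risen in RNA, by 2.35 ± 0.45 (adjusted p = 0.00245) in the wild type and 2.89 ± 0.46 (adjusted p = 0.000621) in the mutant, and at 6 h the values were 3.28 ± 0.46 (adjusted p = 9.02e-06) and 3.39 ± 0.45 (adjusted p = 7.03e-06).

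ATG39 was barely detected at 0 h. Its wild-type footprints were 0.775, 2.62 and 1.24 CPM at 0 h, 1.96, 3.19 and 2.82 CPM at 3 h, and 31.1, 18.7 and 56.9 CPM at 6 h. Its mutant footprints were 0.776, 4.23 and 0.781 CPM at 0 h, 1.24, 1.56 and 3.03 CPM at 3 h, and 26.2, 16.4 and 8.62 CPM at 6 h. The first 2 time points overlapped and the 6 h libraries were all higher, by 4.69 ± 0.65 (adjusted p = 3.1e-05) on the log2 scale in the wild type and 3.83 ± 0.66 (adjusted p = 0.000192) in the mutant. ATG39 RNA was 1.64, 0 and 2.98 CPM at 0 h, 5.55, 13.1 and 2.73 CPM at 3 h, and 14.8, 47 and 67.4 CPM at 6 h in the wild type. Its mutant RNA was 1.1, 0 and 3.93 CPM at 0 h, 9.2, 11.1 and 4.6 CPM at 3 h, and 42, 19.2 and 23.3 CPM at 6 h. The fitted log2 fold change in RNA, 4.52 ± 0.66 (adjusted p = 1.51e-05) in the wild type and 3.30 ± 0.66 (adjusted p = 0.000517) in the mutant, rests on 0 h libraries of 0 to 13 counts.

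ATG36 rose in footprints, and its RNA did not pass in either strain. Its wild-type footprints were 0.775, 2.62 and 1.61 CPM at 0 h, 1.77, 5.32 and 1.73 CPM at 3 h, and 21.4, 11.2 and 10.1 CPM at 6 h. Its mutant footprints were 2.71, 0 and 0.867 CPM at 0 h, 2.79, 2.91 and 1.21 CPM at 3 h, and 10.5, 16.9 and 7.18 CPM at 6 h. All 6 h libraries lay above those of 0 h and 3 h in both strains, and the log2 fold change at 6 h was 3.09 ± 0.66 (adjusted p = 0.00111) in the wild type and 3.27 ± 0.68 (adjusted p = 0.000844) in the mutant. ATG36 RNA was 13.7, 4.82 and 16.5 CPM at 0 h, 13.1, 16.7 and 12.5 CPM at 3 h, and 37.1, 39.8 and 21 CPM at 6 h in the wild type. In mutant RNA ATG36 was 14.3, 24.6 and 25.7 CPM at 0 h, 18.4, 14.8 and 8.63 CPM at 3 h, and 19.1, 17.2 and 10.1 CPM at 6 h. Wild-type RNA at 6 h was above 0 h without overlap, at 1.08 ± 0.46 (adjusted p = 0.0701). It passed there with scaling by total counts alone, at 1.68 (adjusted p = 0.00491), and without wild-type replicate 3 at 6 h. Mutant RNA overlapped, at -0.48 ± 0.43 (adjusted p = 0.401), which was 0.24 when scaled by total counts alone.

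**Figure D3:**
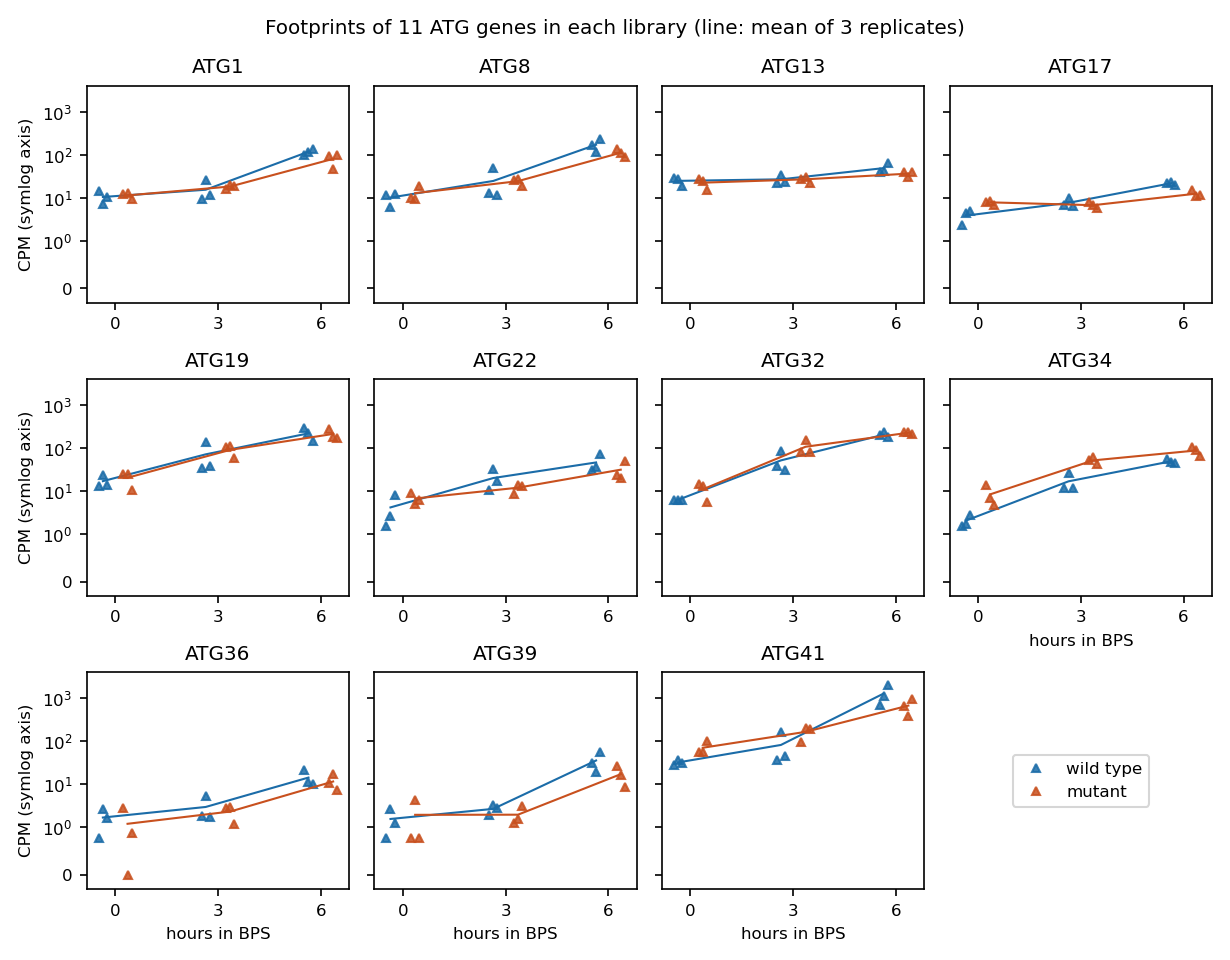
Footprints of 11 ATG genes in CPM, on an axis that is linear below 1 and logarithmic above, against hours in BPS. Each triangle is a library, lines join the means of 3 replicates, and wild type is blue and mutant orange. ATG32 reaches 180 to 235 CPM at 6 h in the wild type from 6.11 to 6.29 CPM at 0 h, ATG13 stays between 15.5 and 64.4 CPM, and the ATG34 triangles of the mutant lie above those of the wild type at every time. That ATG34 difference passed at 3 h alone.

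The vacuolar end of the pathway comprises Atg15, a lipase that opens autophagic bodies, Atg22, an amino acid exporter of the vacuole, and Atg42, a carboxypeptidase. All 3 genes rose in footprints of both strains at 6 h, and all 3 in wild-type RNA. ATG22 alone of them rose in mutant RNA. ATG15 was at 0.55 ± 0.66 (adjusted p = 0.539) and ATG42 at 0.78 ± 0.39 (adjusted p = 0.114) there. ATG22 footprints were 1.55, 2.62 and 8.22 CPM at 0 h, 10.3, 32.7 and 16.9 CPM at 3 h, and 30.6, 36 and 71.6 CPM at 6 h in the wild type. Mutant ATG22 footprints were 8.92, 5.08 and 5.99 CPM at 0 h, 8.37, 14 and 13.3 CPM at 3 h, and 23.9, 19.6 and 50.3 CPM at 6 h. The 6 h and 0 h libraries did not overlap, with log2 fold changes of 3.11 ± 0.56 (adjusted p = 0.000294) in the wild type and 2.12 ± 0.56 (adjusted p = 0.00483) in the mutant. ATG22 RNA was 20.4, 19.3 and 25.5 CPM at 0 h, 39.9, 142 and 39.4 CPM at 3 h, and 193, 83.2 and 202 CPM at 6 h in the wild type. In mutant RNA ATG22 was 22.1, 6.16 and 38.1 CPM at 0 h, 18.4, 33.3 and 34 CPM at 3 h, and 87.9, 61.8 and 133 CPM at 6 h. Wild-type replicate 2 at 3 h, with 142 CPM, was far above its fellow replicates, and the 6 h log2 fold changes in RNA were 2.84 ± 0.52 (adjusted p = 0.000182) and 1.79 ± 0.49 (adjusted p = 0.00639).

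Among the remaining genes ATG41 had the largest fold change of the family in wild-type footprints. Atg41 acts with Atg9 in forming the autophagosome. Its wild-type footprints were 27.9, 37.5 and 30.8 CPM at 0 h, 36.5, 163 and 46 CPM at 3 h, and 685, 1140 and 2050 CPM at 6 h. Mutant ATG41 footprints were 55.5, 56.7 and 99.2 CPM at 0 h, 97.4, 208 and 190 CPM at 3 h, and 654, 387 and 987 CPM at 6 h. The mutant began higher than the wild type, without overlap at 0 h, and at 6 h the 2 strains overlapped. At 6 h the log2 fold change was 5.34 ± 0.64 (adjusted p = 8.68e-06) in the wild type, 40.4-fold, and 3.25 ± 0.57 (adjusted p = 0.000242) in the mutant, 9.49-fold. ATG41 RNA was 35.8, 28.9 and 19.8 CPM at 0 h, 22.2, 44.2 and 21.1 CPM at 3 h, and 363, 329 and 256 CPM at 6 h in the wild type. Mutant ATG41 RNA was 49.6, 43.1 and 69.5 CPM at 0 h, 58.9, 126 and 78 CPM at 3 h, and 298, 197 and 239 CPM at 6 h. At 3 h its RNA in the wild type was at 0.00 ± 0.34 (adjusted p = 0.999), and it rose by 3.47 ± 0.39 (adjusted p = 8.88e-07) at 6 h, beside 2.11 ± 0.36 (adjusted p = 0.000108) in the mutant. ATG26, a sterol glucosyltransferase, rose in the wild type, by 1.37 in RNA and 1.46 in footprints, and passed in neither assay of the mutant, at 0.61 ± 0.32 (adjusted p = 0.134) and 0.64 ± 0.30 (adjusted p = 0.0884). ATG45, which codes for a glycogen receptor, rose in footprints of both strains, by 2.65 and 2.79, and in wild-type RNA, by 2.01. ATG44, a mitochondrial fission factor of mitophagy, passed in no comparison at 6 h, with 0.40 and 0.76 in RNA and 0.13 and -0.05 in footprints. Scaled by total counts alone it passed in RNA, at 0.98 (adjusted p = 0.0172) in the wild type and 1.46 (adjusted p = 0.000629) in the mutant, and its mutant footprints were at 0.13.

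**Figure D4:**
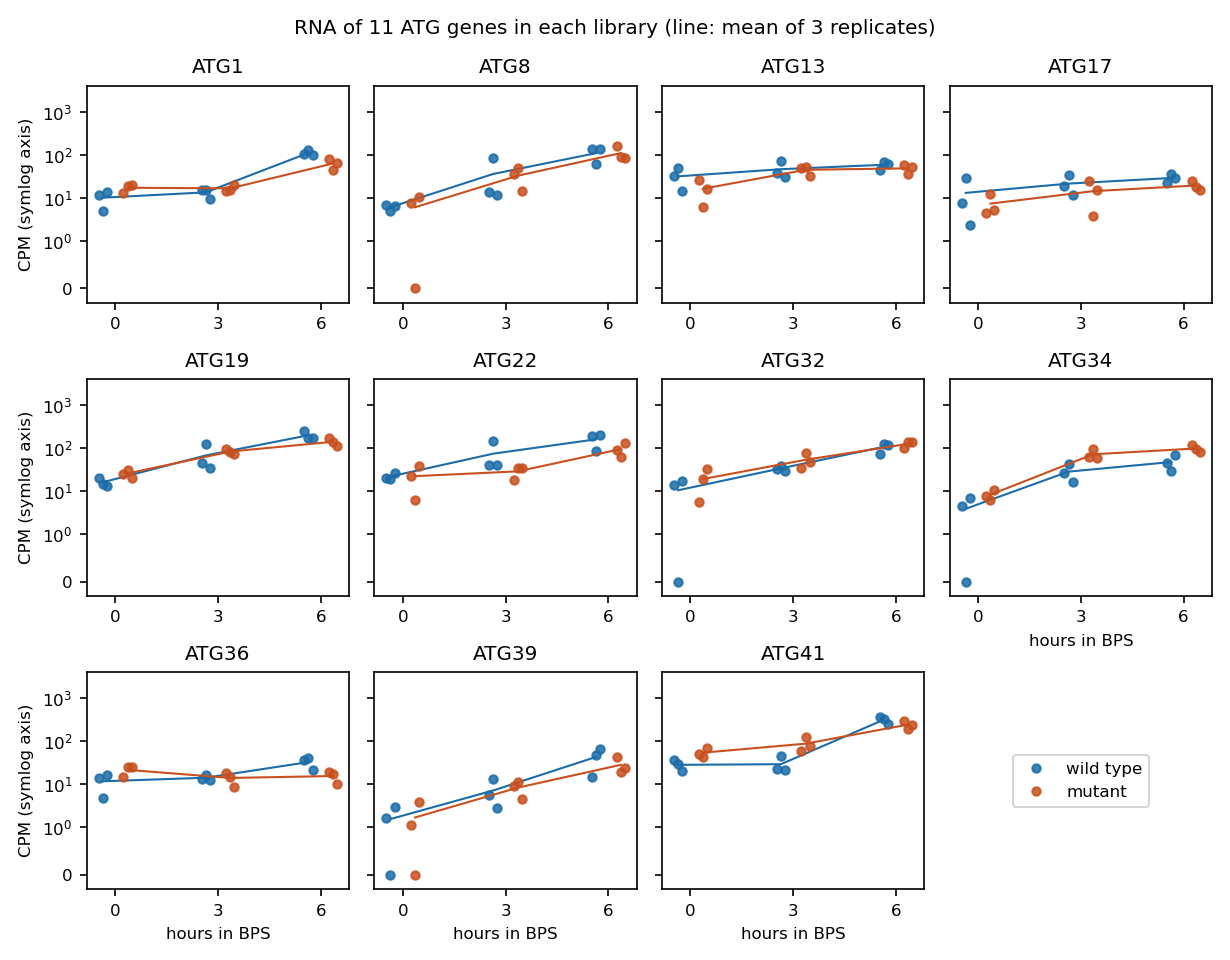
RNA of the same 11 ATG genes in CPM, on an axis that is linear below 1 and logarithmic above, against hours in BPS. Each circle is a library, lines join the means of 3 replicates, and wild type is blue and mutant orange. Points on the zero line are libraries with no count, all of them under 250000 counts in depth, and ATG41 in the wild type stays at 19.8 to 44.2 CPM until 3 h and reaches 256 to 363 CPM at 6 h.

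Per kb of coding length, ATG genes were low before BPS. In the wild type at 0 h, 32 of 37 were below the median RNA level of 5254 protein-coding genes, 41.3 CPM per kb, and 34 of 37 below the median footprint level, 28.5 CPM per kb. The ATG medians were 12.2 CPM per kb in RNA and 5.55 in footprints. ATG44, ATG27, ATG5, ATG41 and ATG10 were the 5 above the RNA median, from 337 down to 68.4 CPM per kb. Footprints per RNA, relative to the median gene, ranged from 0.0849 for ATG10 and 0.148 for ATG5 to 2.51 for ATG8 and 3.18 for ATG15 among members past the filter. ATG10 and ATG5 were thus well represented in RNA, at the 63 and 68.9 percentile of those genes, and stood at the 9.76 and 21 percentile in footprints. Wild-type ATG10 footprints at 0 h were 5, 0 and 37 counts. ATG10 lies 540 bases beyond SDH2 on the same strand, and PPT2 lies 99 bases after ATG5 on the opposite strand. Any bearing of these neighbours on the ratios was not tested.

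Changes in footprints and in RNA were compared as translational efficiency (TE), the log2 change in footprints minus that in RNA. The log2 fold change in footprints exceeded that in RNA for 26 of 36 ATG genes in each strain at 6 h, as it did for 58.6% of all features in the wild type and 56.8% in the mutant. The median TE change was 0.35 in the wild type and 0.58 in the mutant, beside 0.14 and 0.13 over all 5290 features. These medians rest on the scaling: with total counts alone they were -0.16 and 0.02, beside -0.38 and -0.39 over all features. TE then rose for 2 features and fell for 33 in the wild type, in place of 11 and 10, and rose for 12 and fell for 112 in the mutant, in place of 58 and 34. In the wild type no ATG gene passed by edgeR or DESeq2, where 0.397% of features did, and 5 had an unadjusted p under 0.05, namely ATG2, ATG9, ATG32, ATG36 and ATG41. ATG2 came nearest, at 1.85 ± 0.46 (adjusted p = 0.0721), and ATG2 and ATG41 passed when the common lysate of RNA and footprints was the block, a fit in which 3.12% of all features passed. Without wild-type RNA replicate 1 at 0 h or wild-type footprint replicate 1 at 6 h, 1 passed. In the mutant 1 passed, ATG36 at 3.76 ± 0.77 (adjusted p = 0.0116), where 1.1% of features rose in TE. That call was lost without mutant RNA replicate 3 at 0 h or mutant footprint replicate 3 at 0 h, and 2 passed without mutant RNA replicate 1 at 0 h and, as ATG32 and ATG36, with the lysate block, where 7.66% of all features passed. The mutant 0 h footprints of ATG36 were 7, 0 and 10 counts. TE of ATG36 in the wild type was 2.00 ± 0.77 (adjusted p = 0.298), and the TE of the 2 strains at 6 h did not differ by the test, at 0.73 ± 0.69 (adjusted p = 1). At 3 h no TE change passed in either strain by edgeR or DESeq2, with 2 ATG genes at an unadjusted p under 0.05 in each, where 0.0378% and 0% of features passed. For TE at 6 h between strains none passed by either tool, 0 had an unadjusted p under 0.05, and 0.0189% of features passed.

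**Figure D5:**
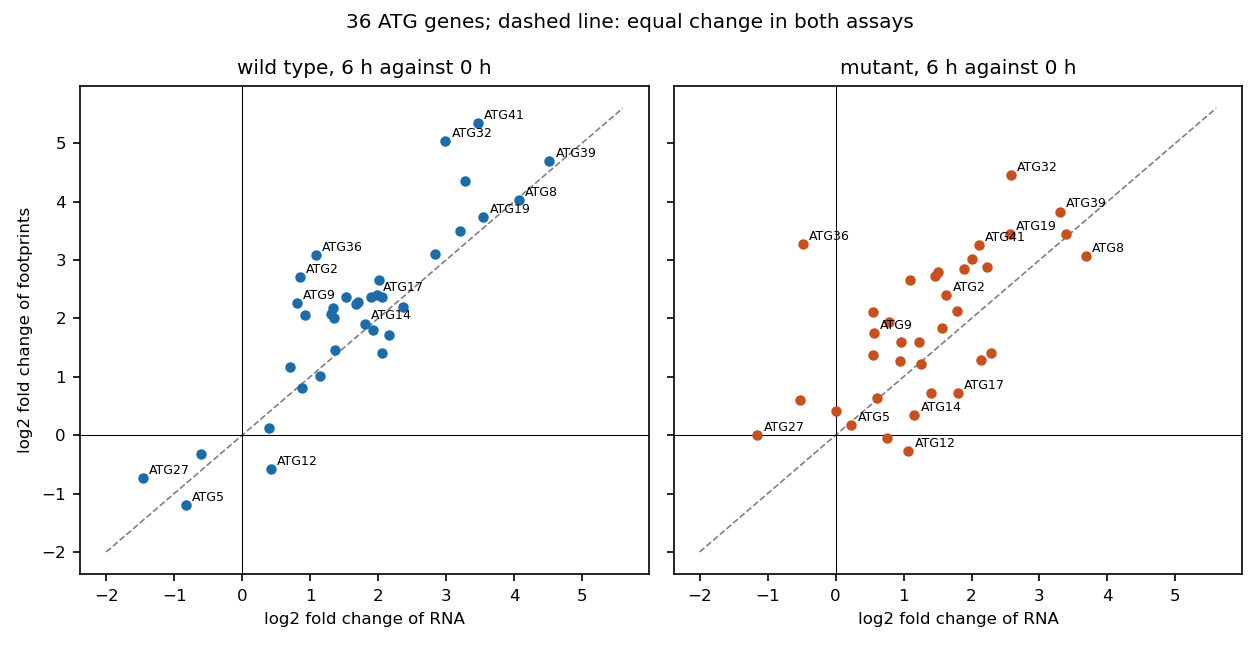
Log2 fold change at 6 h against 0 h in RNA (horizontal) and in footprints (vertical) of the 36 tested ATG genes, wild type at the left and mutant at the right. Each point is a gene and the dashed line marks equal change in both assays. In each strain 26 of 36 points lie above the line, and ATG36 is far above it in the mutant, with -0.48 in RNA (0.24 when scaled by total counts alone) and 3.27 in footprints.

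The comparison of strains asks whether loss of Cth1 and Cth2 alters these levels. In RNA no ATG gene passed at 0 h, 3 h or 6 h by edgeR, where 0.0167%, 0.45% and 0.783% of features passed. Unadjusted p under 0.05 was reached by 2, 4 and 5 of 36, and DESeq2 called 0, 1 and 0. The 1 was ATG41 at 3 h, at 1.59 ± 0.37 (adjusted p = 0.0539) by edgeR, higher in all mutant libraries than in all wild-type ones. It also passed with scaling by total counts alone, with the replicate block and without wild-type replicate 2 at 3 h. The difference between strains in the RNA response passed for no ATG gene at 3 h or 6 h by either tool, with 1 and 4 at an unadjusted p under 0.05, where 0.0167% and 0.0333% of features passed.

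In footprints no ATG gene passed at 0 h or 6 h by either tool, with 2 and 3 at an unadjusted p under 0.05, where 0.0188% and 6.27% of features passed. At 3 h ATG34 was higher in the mutant, by 1.65 ± 0.37 (adjusted p = 0.0407), where 0.809% of features were higher. Its differences at 0 h and 6 h, 1.75 ± 0.48 (adjusted p = 1) and 0.85 ± 0.36 (adjusted p = 0.201), had the same sign, and so did those in RNA, 0.80, 1.35 and 0.91 at 0 h, 3 h and 6 h. The 3 h call was lost without wild-type replicate 1 or 3 or without any one mutant replicate, and with only the 2 groups in the fit. Without wild-type replicate 2 at 3 h, 2 ATG genes passed. At 6 h 1 passed without wild-type replicate 1 or without mutant replicate 1.

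The footprint response at 6 h differed between strains for ATG17, at -1.67 ± 0.41 (adjusted p = 0.0346), where 0.753% of features responded less in the mutant. The difference joins a start that was higher in the mutant, 0.89 ± 0.31 (adjusted p = 1), and an end that was lower, -0.79 ± 0.27 (adjusted p = 0.101), neither of which passed alone. It kept its sign in all 18 alternatives, from -1.99 to -1.50, and missed the threshold in 12 of them. The libraries whose omission lost the call were wild-type replicates 1, 2 and 3 at 0 h, wild-type replicates 2 and 3 at 6 h, mutant replicates 1 and 2 at 0 h and mutant replicates 2 and 3 at 6 h. ATG41 had the largest difference, -2.09 ± 0.76 (adjusted p = 0.18), which did not pass. At 3 h no difference in response passed by either tool, with 1 at an unadjusted p under 0.05, where 0.282% of features passed. The fitted log2 fold change at 6 h was greater in the mutant for 11 of 36 ATG genes in footprints and 14 of 36 in RNA, beside 44.1% and 44.2% of all features. The 2 responses share no libraries, but the genes are not independent.

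Cth2 binds AU-rich elements after the stop codon, with TATTTAT as the core letters searched on the coding strand within 300 bases. They were found for 4 of 37 ATG genes (10.8%) and 17% of all genes, and their reverse complement for 24.3% and 16.6%. The 4 matches are shown, coding strand, 30 bases each with the core in capitals, since the deleted proteins are known to act on AU-rich elements. A match to these core letters is not by itself a site of Cth1 or Cth2.
ATG3: atgtatgtataTATTTATaagcgctaggtt
ATG27: accttttattaTATTTATataaactctaag
ATG33: tctcgttcacgTATTTATctctacaagaat
ATG34: tatttaactttTATTTATgttttcgttata
The core starts 276 bases after the stop codon in ATG3 (chrXIV:638888-638917, minus strand) and 59 in ATG27 (chrX:89205-89234, minus strand). It starts 16 bases after it in ATG33 (chrXII:840919-840948, plus strand) and 53 in ATG34 (chrXV:166994-167023, plus strand). Whether these letters lie within the messages, or bear on any value above, was not tested.

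Genes that work with the ATG proteins under other names were taken in 5 lists. Over all features at 6 h, 28.5% rose and 24.3% fell in wild-type footprints, and 26.2% and 24.5% in mutant footprints. In RNA 19.2% rose and 16.7% fell in the wild type, and 17.8% and 20.9% in the mutant. Of 7 vacuolar proteases and Cvt cargoes, 6 rose and 1 fell in wild-type footprints at 6 h, and all 7 rose in the mutant. PRB1, a vacuolar protease, rose by 5.94 ± 0.58 (adjusted p = 3.45e-06) in the wild type and by 5.19 ± 0.56 (adjusted p = 7.79e-06) in the mutant. AMS1, the mannosidase carried by Atg19 and Atg34, rose by 5.57 ± 0.71 (adjusted p = 1.6e-05) and 4.27 ± 0.66 (adjusted p = 8.77e-05). APE1, the aminopeptidase carried by Atg19, rose by 3.98 ± 0.46 and 3.58 ± 0.45. APE4, another aminopeptidase cargo, was the exception. Its wild-type footprints were 74.0 ± 17.9 CPM at 0 h, 40.2 ± 3.37 at 3 h and 42.6 ± 8.79 at 6 h (SD, n = 3), and its mutant footprints 72.4 ± 11.5, 123 ± 12.6 and 147 ± 30.9 CPM. It was higher in the mutant at 3 h, by 1.61 ± 0.23 (adjusted p = 0.000905), and at 6 h, by 1.80 ± 0.24 (adjusted p = 0.000242). In RNA 6 of the 7 rose in the wild type and 5 in the mutant, and none fell.

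The shared PI3-kinase and sorting genes VPS34, VPS15, VPS30 and SNX4 all rose in wild-type footprints at 6 h, by 1.1 to 1.84, and 3 of 4 in the mutant. In RNA SNX4 alone passed, in each strain. Of 9 tethering and fusion genes 5 rose and 1 fell in wild-type footprints, where 28.5% of all features rose and 24.3% fell. MON1 led at 1.68 ± 0.30, and the SNARE gene YKT6 fell by 1.22. In the mutant 3 rose, or 33.3%, beside 26.2% of all features. None of the 9 passed in RNA of either strain by edgeR. Unadjusted p under 0.05 was reached by 1 in the wild type and 0 in the mutant. Of 13 genes of TORC1 and its inputs 6 rose in wild-type footprints, beside 28.5% of all features. IML1 and NPR2, subunits of a complex that restrains TORC1, led at 1.80 ± 0.33 and 1.46 ± 0.35. In mutant footprints 3 of the 13 rose, a share near the 26.2% of all features that rose there. In RNA IML1 rose in the wild type, by 0.95 (adjusted p = 0.0294). In mutant RNA SLM4 and GTR1, which act with TORC1 at the vacuole, rose, by 1.16 (adjusted p = 0.00327) and 1.06 (adjusted p = 0.0418), and SCH9, a kinase downstream of TORC1, fell by 1.62 (adjusted p = 0.00582).

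Of 14 regulators of ATG transcript levels 8 rose and 1 fell in wild-type footprints at 6 h, where 28.5% of all features rose and 24.3% fell. In mutant footprints 3 rose and 4 fell, where 26.2% of all features rose and 24.5% fell. GAT1, a GATA activator, rose by 2.54 ± 0.29 and 2.47 ± 0.29, RIM15, a kinase of the starvation response, by 2.07 ± 0.29 and 1.02 ± 0.28, and RPH1, a repressor of ATG genes, by 1.81 ± 0.22 and 1.14 ± 0.22, wild type first. UME6, the repressor named above, fell by 0.75 in the wild type and by 1.41 in the mutant (adjusted p = 0.0119 and 0.000182). Footprints of GCN4, an activator of amino acid synthesis genes, rose by 0.98 (adjusted p = 0.0471) in the wild type and fell by 1.07 (adjusted p = 0.0338) in the mutant. The mutant started higher, at 566 ± 146 CPM beside 245 ± 63.9 CPM in the wild type at 0 h, a difference that did not pass (adjusted p = 1). The difference between strains in the 6 h response, -2.05 ± 0.56 (adjusted p = 0.0599), did not pass either. In mutant RNA DHH1, an RNA helicase of decay and translation, fell by 1.69 (adjusted p = 0.00553), and no regulator rose. In wild-type RNA 5 of the 14 rose and none fell, where 19.2% of all features rose and 16.7% fell.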

How the data were processed

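Gene counts for 18 RNA-seq and 18 Ribo-seq libraries were taken as deposited by the authors, as raw counts per feature. Cells were ground frozen in lysis buffer with cycloheximide, each lysate was split for the assays, footprints were made with RNase I and messages were fragmented by alkaline hydrolysis, per the labels' protocols. The submitters' processing notes name cutadapt 3.4, Bowtie 1.1.2, STAR 2.7.9a and the R64 build, without role or order. The counting program, its use of strand and its treatment of reads with several positions are not given in the sources used here. The R64 reference is of strain S288C and the cultures are W303a.

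Each assay was fitted with edgeR 4.0.16 in R 4.3.3 over its 18 libraries, with TMM factors, edgeR's low-count filter at a minimum count of 10, a mean for each group and the quasi-likelihood F-test with Benjamini-Hochberg adjustment over all features. That left 12 residual degrees of freedom. TE used 1 fit of 36 libraries with each assay's own factors and 24 residual degrees of freedom. Values after ± are SEs for log2 fold changes and SDs for CPM. The SE is the log2 fold change divided by the root of F. Alternatives were DESeq2 1.42.0, RLE factors, scaling by total counts alone, a block for the replicate number or the lysate, a fit of the compared groups only, omission of the low-count filter, omission of each library in turn, and, chosen after seeing the data, leaving out RNA libraries under 250000 counts. Leaving out those shallow libraries kept replicate 3 alone in wild-type RNA at 6 h. The fits were tried on simulated counts with a single fixed spread for all genes and no pairing. That trial does not show how they perform with the spread between these replicates.

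Replicates are labelled biological, and p-values measure the spread between these cultures. No pair of replicates agreed within sampling noise, since chi-square per degree of freedom over 36 pairs was 3.88 to 228. Same-numbered libraries deviated together, with every pair's correlation over 0.1, in mutant RNA at 6 h against 0 h and 3 h, between strains in RNA at 0 h and 6 h, in footprints at 3 h against 0 h of both strains, in mutant footprints at 6 h against 3 h and between strains in footprints at 3 h. Mean correlations there were 0.151 to 0.51. RNA and footprints share a lysate per the protocols, with a mean correlation of 0.357.

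ATG1, ATG8 and ATG13 were always given by library, with the 8 largest passing wild-type changes at 6 h without overlap and each member called between strains or in TE. ATG5, ATG27 and the wild-type rise of GCN4 were added after their values were seen. Members and lists were chosen with earlier results of these data known. Sequence windows were read from the R64 genome at annotated start and stop codons.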

Additional observations from a re-analysis of the deposited data

Results flagged for a closer look

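The 6 h footprint response of ATG17, which encodes a scaffold of the initiation complex, differed between strains by -1.67 ± 0.41 on the log2 scale (edgeR quasi-likelihood test, adjusted p = 0.0346), mutant minus wild type. It was singled out because the test of the difference itself passed. Its wild-type footprints at 0 h were 3, 5 and 89 counts. Its RNA difference was -0.19 ± 0.94, which did not pass (adjusted p = 0.987).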

How the results depend on the processing

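Counts of ATG genes passing are compared here with the values in the report. With total counts alone, 25 passed in wild-type RNA between 3 h and 6 h, 31 in mutant RNA at 6 h, 17 in mutant RNA between 3 h and 6 h, 1 in RNA between strains at 3 h, 24 in mutant footprints between 3 h and 6 h, and 0 for the strain difference in the 6 h footprint response. That last count was also 0 with no low-count filter and with only the groups compared. With only the groups compared, 14 passed in wild-type footprints between 3 h and 6 h and 0 in footprints between strains at 3 h. DESeq2 gave 1 in RNA between strains at 3 h. With the replicate block 1 passed in RNA between strains at 3 h and 5 in wild-type footprints at 3 h, and with the lysate block 2 in TE of each strain at 6 h. No other count moved by over 1.5 times under the block. Without RNA libraries under 250000 counts, chosen after seeing the data, 2 passed in wild-type RNA at 3 h and 1 in mutant RNA at 3 h. That setting dropped replicate 2 at 0 h of both strains. It kept replicate 3 alone in wild-type RNA at 6 h, so its counts there are not given. The cause of these moves was not tested.

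Leaving out 1 library at a time gave 1 to 5, 17 to 28 and 8 to 20 in wild-type RNA at 3 h, at 6 h and between them, and 1 to 2, 16 to 21 and 3 to 10 in the mutant. In footprints it gave 2 to 4, 27 to 32 and 14 to 29 in the wild type and 2 to 5, 22 to 27 and 11 to 15 in the mutant. Between strains it gave 0 to 1 in RNA at 3 h, 0 to 2 and 0 to 1 in footprints at 3 h and 6 h, and 0 to 1 for the difference in the 6 h footprint response. TE at 6 h gave 0 to 1 in the wild type and 0 to 2 in the mutant. RLE factors moved no count by over 1.5 times. For the 13 genes given by library, 107 results under 1342 alternative values had none reversed, and 21 values gained the threshold. Only the 57 results that passed could lose it, and they did so in 67 of 722 values. The setting that kept replicate 3 alone in wild-type RNA at 6 h is among these alternatives. Most of these genes were chosen for large changes in these data, so their stability is no separate support. In wild-type footprints at 6 h 1 ATG gene fell with DESeq2, ATG5, and 1 with the replicate block, ATG27. With that block 2 fell in wild-type RNA at 6 h, ATG5 and ATG27, and 1 between 3 h and 6 h. At 3 h in wild-type RNA the block passed ATG23 and not ATG8. RNA libraries under 250000 counts limit low genes most.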
